A study of Mus musculus with 8 samples.

Results

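The 10 genes described here encode the contractile apparatus of smooth muscle cells and myofibroblasts together with proteins that anchor or regulate it. They are Acta2, Tagln, Cnn1, Myl9, Myh11, Actg2, Des, Tpm1, Tpm2 and Mical2, chosen by name among the 56691 gene identifiers of the deposited count table, and all 10 have a row in it. RNA was measured in 8 tumours of the mouse colon adenocarcinoma line MC38, grown in C57BL/6J mice. The 4 C26 tumours came from mice given C26, a compound known here by its code alone, as 10 mg/kg doses every second day over 2 weeks. The 4 control tumours grew from the same line in the same strain, and neither their treatment, beyond being controls, nor whether each tumour had its own host animal is stated in the sources used here. If tumours shared an animal, the p-values measure the spread between these samples, which may be technical.

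In smooth muscle, thin filaments of alpha and gamma smooth muscle actin, wrapped by tropomyosin, slide past filaments of smooth muscle myosin when the myosin light chain is phosphorylated. Fibroblasts that turn into myofibroblasts, a common stromal cell in tumours, switch on part of the same gene set, above all alpha smooth muscle actin. Many of these genes are driven by serum response factor (SRF) bound to a DNA element named the CArG box, together with the cofactors myocardin and the myocardin-related transcription factors (MRTFs), which respond to the pool of unpolymerised actin. In a whole tumour, fewer cells of a type and less RNA per cell cannot be told apart.

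The CArG box, CC and GG on either side of 6 bases of A or T, reads as itself on the opposite strand, so that a search of 1 strand covers both. RefSeq promoter entries on GRCm38.p6 were present for 7 of the 10 genes, with none for Tagln, Myh11 or Actg2, and the 250 bases before the RefSeq start were searched. A box with every position matched stood before Myl9 alone of the 7, and boxes with at most 1 mismatch among the 6 central bases stood before Acta2 and Myl9. Cnn1, Des, Tpm1, Tpm2 and Mical2 had no match in this window, which says only that these letters are not there. Among all 32851 promoters of the table, 1.47% held an exact box and 8.59% held a box with at most 1 mismatch. The stretches of Acta2, Myl9 and Mical2 are printed to show the boxes before a smooth muscle actin and a smooth muscle light chain beside the promoter of the gene with the firmest difference between the tumours. Capitals mark the boxes, each sequence runs 5′ to 3′ on the gene's strand, and its last base is the base before the start.
Acta2, chr19:34255374-34255623, minus strand: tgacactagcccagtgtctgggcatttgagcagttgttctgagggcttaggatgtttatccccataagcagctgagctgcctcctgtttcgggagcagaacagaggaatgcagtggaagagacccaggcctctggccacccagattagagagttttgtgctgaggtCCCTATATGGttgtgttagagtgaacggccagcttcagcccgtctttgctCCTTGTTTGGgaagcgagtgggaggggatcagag
Myl9, chr2:156775214-156775463, plus strand: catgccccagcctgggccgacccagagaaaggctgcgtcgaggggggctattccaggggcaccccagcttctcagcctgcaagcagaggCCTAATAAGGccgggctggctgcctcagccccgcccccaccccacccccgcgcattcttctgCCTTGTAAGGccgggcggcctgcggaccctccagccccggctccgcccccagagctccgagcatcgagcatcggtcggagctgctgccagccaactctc
Mical2, chr7:112225586-112225835, plus strand: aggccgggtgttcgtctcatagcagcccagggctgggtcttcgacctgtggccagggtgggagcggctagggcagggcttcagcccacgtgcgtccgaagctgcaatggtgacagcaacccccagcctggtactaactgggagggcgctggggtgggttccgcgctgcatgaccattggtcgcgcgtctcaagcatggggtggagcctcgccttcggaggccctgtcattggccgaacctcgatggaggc
The Acta2 boxes, CCCTATATGG and CCTTGTTTGG, began 84 and 34 bases before the start. The Myl9 boxes began 161 bases before the start for the exact match, CCTAATAAGG, and 99 bases before it for CCTTGTAAGG.

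Mical2 was the only one of the 10 genes past the threshold, 1.58-fold higher in C26 tumours. Des was 5.64-fold higher with a wide spread and did not pass. Acta2, Tagln, Myl9 and Myh11 averaged 1.21-fold to 1.52-fold higher without passing, and Cnn1 was too low to test. Tpm1, Tpm2 and Actg2 had log2 fold changes of 0.09, -0.13 and -0.08 and did not pass. Differences were tested with edgeR's quasi-likelihood test across 15755 genes, and a gene counted as changed at a Benjamini-Hochberg adjusted p under 0.05. Of the 9 members tested, 1 rose and 0 fell, where 3.64% of all tested genes were called higher and 4.12% lower in C26 tumours. The log2 fold change was positive for 7 of 9 members with a median of 0.31, against 51% positive and a median of 0.01 over all tested genes. The members, like the gene lists below, were chosen with earlier results of these data known, so such comparisons with all genes are descriptions only. Tagln entered the test through its C26 libraries, as all 4 of those and 1 control library reached the filter's level of 0.516 CPM, the usual depth-scaled count unit, so the median over the tested members leans towards C26.

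**Figure D1:**
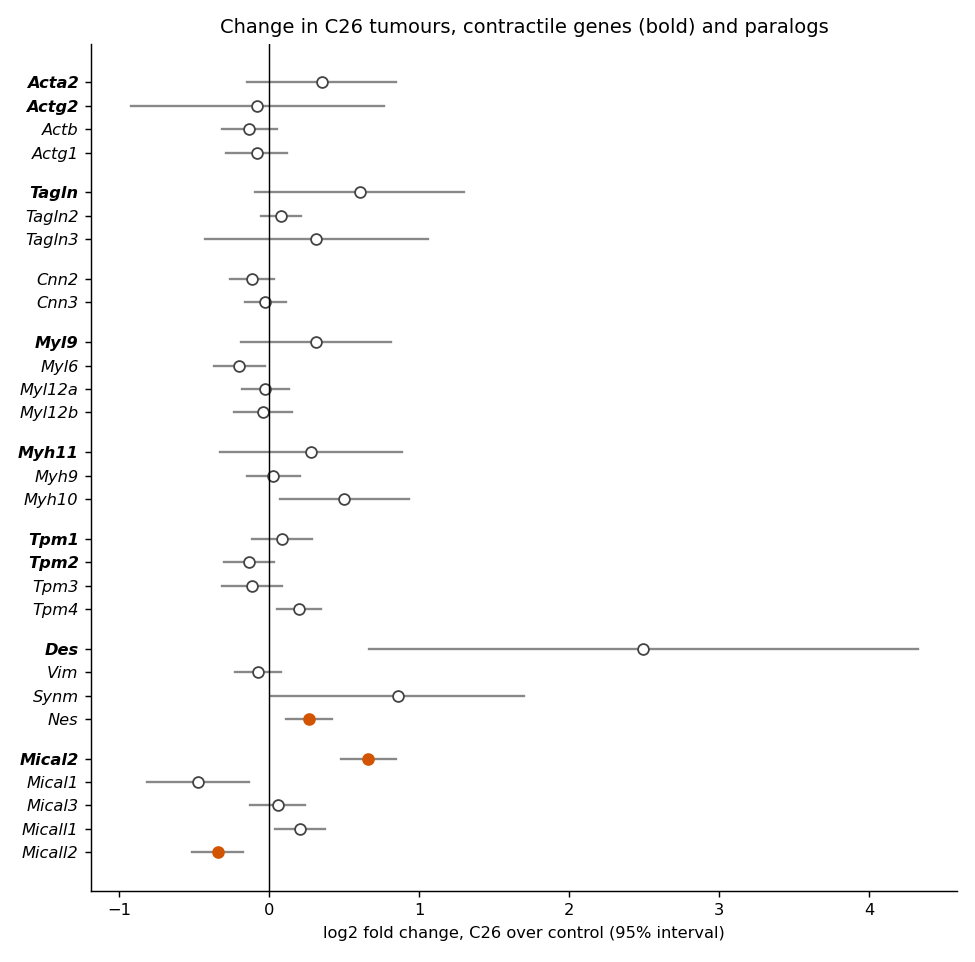
Log2 fold changes of C26 over control tumours for the members (bold) and the other genes of their families, with 95% intervals and the threshold-passing genes filled. Mical2 at 0.66 is the filled member, Des has the widest interval among the members, and Cnn1 is absent because it was not tested.

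The libraries held 17075176 to 21517425 counts. Of all tested genes, 1223 changed (7.76%), of which 46.9% were higher in C26 tumours. That share was 78.7% with total library sizes in place of TMM scaling and 32.7% when length and GC content of the transcripts entered as offsets. Most of the 9 listed epithelial markers of a colon adenocarcinoma were near 0 in these tumours, with Krt8 at 1 count over the C26 libraries and 2 over the control libraries, Epcam at 10 and 9 counts, and Cdx2 at 0 in all 8. Cdh1, encoding E-cadherin, was the 1 listed marker that could be tested, at 2.77 ± 0.391 CPM in C26 tumours and 3.35 ± 0.605 CPM in control tumours (adjusted p = 0.415). Genes of skeletal muscle, a tissue that can lie beside an implanted tumour, averaged higher in the C26 libraries. Their mean log2 CPM over 16 tested genes was 1.76, 4.79, 3.03 and 1.14 in C26 tumours 1 to 4, against -0.67, 1.42, -0.52 and -0.46 in control tumours 1 to 4. The groups overlapped, as C26 tumour 4 lay below control tumour 2.

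Acta2, alpha smooth muscle actin and the usual marker of myofibroblasts, is annotated by GENCODE M21 at chr19:34241090-34255590. It had 8.02, 7.68, 8.30 and 7.55 CPM in C26 tumours 1 to 4, against 5.76, 4.44, 10.2 and 4.24 CPM in control tumours 1 to 4. Control tumours 1, 2 and 4 lay below every C26 tumour and control tumour 3 lay above all of them, so the groups overlapped. The means were 7.89 ± 0.340 CPM in C26 tumours and 6.16 ± 2.77 CPM in control tumours (SD, n = 4 each), a log2 fold change of 0.35 ± 0.23 (SE, 95% interval -0.15 to 0.85, adjusted p = 0.364). Without control tumour 3 the log2 fold change was 0.70 and passed (adjusted p = 0.0233).

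Control tumour 3 was also the highest control library for Tagln, Myl9, Myh11 and Tpm2, that is for 5 of the 10 members with Acta2 included. Markers of vessels and their wall cells moved with it. The mean log2 CPM of 11 tested endothelial genes was 3.22 to 3.57 in the C26 tumours, against 3.32 in control tumour 3 and 2.70 to 2.84 in the other control tumours. For the 12 pericyte genes it was 2.05 to 2.53 in C26 tumours, against 2.53 in control tumour 3 and 1.65 to 1.94 in the other control tumours. Fibroblast genes were also highest among the controls in control tumour 3, by less. The mean over 18 of them was 6.72 to 6.96 in C26 tumours, 6.61 in control tumour 3 and 6.19 to 6.54 in the other control tumours. The part of these cells in the values of Acta2 and the other members was not tested.

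Among the 11110 genes with a mean of at least 5 CPM, those whose centred log2 CPM followed Acta2 most closely over the 8 libraries were Pecam1, Dpt, Prkch, Col15a1 and S100a16, with root mean square differences of 0.131 to 0.195. Pecam1 is an endothelial adhesion molecule, Dpt encodes the matrix protein dermatopontin, and Col15a1 encodes a basement membrane collagen. Pecam1 averaged 29.2 ± 2.73 CPM in C26 tumours and 21.2 ± 6.90 CPM in control tumours, and did not pass (adjusted p = 0.144). Its centred log2 CPM was 0.36 in control tumour 3 and -0.57 to -0.31 in the other control tumours, as Acta2 stood at 0.59 and at -0.66 to -0.23 there.

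**Figure D2:**
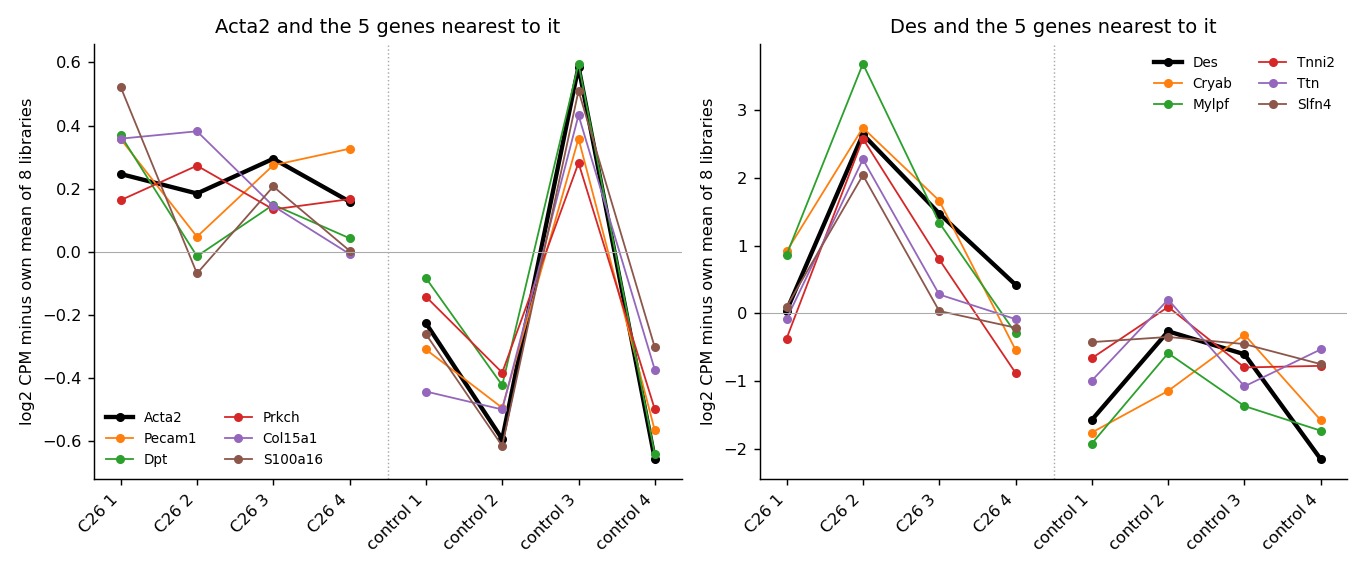
Centred log2 CPM in each library for Acta2 and Des with the 5 genes nearest to each; lines link libraries for legibility and carry no order. Control tumour 3 stands with the C26 tumours for Acta2 and its neighbours, and C26 tumour 2 is the highest library for Des and its neighbours.

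Actg2, gamma smooth muscle actin of visceral muscle (chr6:83512905-83536265), was low in both groups. It had 0.264, 0.675, 0.502 and 0.557 CPM in C26 tumours 1 to 4, against 0.660, 0.529, 0.642 and 0.242 CPM in control tumours 1 to 4. The groups overlapped throughout, on 40 counts in C26 tumours and 41 in control tumours. The log2 fold change was -0.08 ± 0.40 (SE, 95% interval -0.92 to 0.77, adjusted p = 0.925), an interval that leaves room for a change of either sign, and the sign turned with offsets for length and GC content and when C26 tumour 1, control tumour 1 or control tumour 3 was left out (0.12, 0.05 and 0.03). Per kilobase of exon, the 2 smooth muscle actins made up 0.308 ± 0.0145% of the summed cytoplasmic and smooth muscle actins in C26 tumours and 0.223 ± 0.0724% in control tumours (SD, n = 4 each, exact permutation p = 0.143, adjusted p = 0.167 over 7 families). The rest was Actb and Actg1, the actins of every cell, at 977 and 289 CPM per kilobase in C26 tumours and 1070 and 306 CPM per kilobase in control tumours. Of the 5 actin genes tested, none passed. Acta1, skeletal muscle actin, averaged 39.98 ± 51.0 CPM in C26 tumours and 2.10 ± 3.74 CPM in control tumours, and Actc1, the cardiac form, had 23 counts in C26 tumours against 3 in control tumours and was too low to test.

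Tagln encodes transgelin (SM22), an actin-bundling protein and an early smooth muscle marker (chr9:45929619-45936058). It had 0.739, 0.883, 0.684 and 0.709 CPM in C26 tumours 1 to 4, against 0.472, 0.423, 0.692 and 0.364 CPM in control tumours 1 to 4. Control tumour 3 again reached the C26 range, and the other control tumours lay below it. The means were 0.754 ± 0.0888 CPM in C26 tumours and 0.488 ± 0.143 CPM in control tumours, a log2 fold change of 0.61 ± 0.33 (SE, 95% interval -0.09 to 1.3, adjusted p = 0.263) on 60 and 38 counts. Tagln overlaps the antisense gene Gm48529 over 1241 exonic bases and Pcsk7 over 108, both on the opposite strand, and with no strand setting given their reads cannot be told apart. Gm48529 had 133 counts in C26 tumours and 116 in control tumours. Of the 50-base windows of the Tagln transcript, 48.3% occur in another gene. Reads there may be lost to Tagln or added to it, so its level is uncertain. Tagln2, the paralogue of Tagln found in most cells, was at 149.7 CPM per kilobase in C26 tumours and 141.5 in control tumours, against 0.379 and 0.245 for Tagln.

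Cnn1 encodes basic calponin, a thin-filament protein that is among the more specific markers of differentiated smooth muscle (chr9:22099216-22109630). It was seen as 4, 4, 6 and 1 counts in C26 tumours 1 to 4, against 1, 0, 0 and 0 counts in control tumours 1 to 4. The lowest C26 tumour and the highest control tumour each had 1 count. Their CPM, 0.0506 and 0.0472, differed only through the scaling for library size. The 15 counts in C26 tumours against 1 in control tumours gave a ratio of 14.4 after scaling for library size, with a 95% interval of 2.22 to 608 that covers counting error only and not the spread between tumours. Cnn1 was 0.0345 ± 0.0172% of the summed calponins per kilobase in C26 tumours and 0.00213 ± 0.00426% in control tumours (SD, n = 4 each). These shares did not overlap and gave the smallest p that 4 against 4 allows (exact permutation p = 0.0286), which the adjustment over 7 families took to 0.1. That p rests on a tie of 1 count each. The shares there, 0.00953% in C26 tumour 4 and 0.00851% in control tumour 1, differed only through the other calponins. The other calponins, Cnn2 and Cnn3, which non-muscle cells express, were at 63.5 and 132 CPM per kilobase in C26 tumours and 68.7 and 134 in control tumours.

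**Figure D3:**
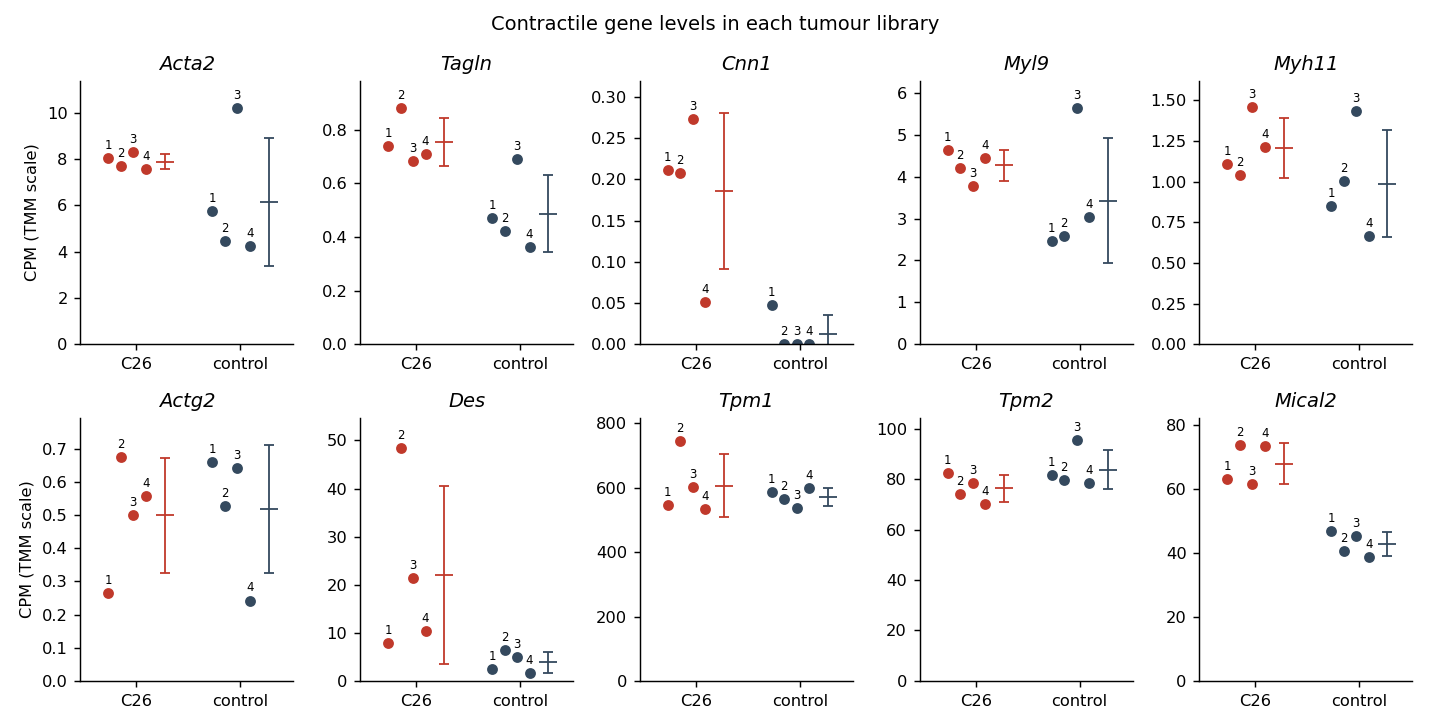
Level of each of the 10 genes in every library, in CPM on the TMM scale, with the library number beside each point and the mean and SD of 4 libraries per group. Mical2 and Des separate the groups. For Cnn1 the lowest C26 library and the highest control library hold 1 count each and differ only by library scaling. Control tumour 3 reaches or passes the C26 range for Acta2, Tagln, Myl9 and Myh11.

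Myl9, the regulatory light chain of smooth muscle myosin whose phosphorylation starts contraction (chr2:156775420-156781658), had 4.65, 4.20, 3.79 and 4.46 CPM in C26 tumours 1 to 4, against 2.45, 2.59, 5.63 and 3.03 CPM in control tumours 1 to 4. Control tumour 3 was the highest of the 8, and the remaining control tumours lay below every C26 tumour. The means were 4.27 ± 0.372 CPM in C26 tumours and 3.43 ± 1.49 CPM in control tumours, a log2 fold change of 0.31 ± 0.24 (SE, 95% interval -0.19 to 0.81, adjusted p = 0.429). Without control tumour 3 the log2 fold change was 0.67 and still did not pass (adjusted p = 0.063). Myl9 made up 1.45 ± 0.105% of the 4 related light chains per kilobase in C26 tumours and 1.05 ± 0.403% in control tumours (exact permutation p = 0.143, adjusted p = 0.167).

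Myh11, the smooth muscle myosin heavy chain and the strictest marker of mature smooth muscle among the 10 (chr16:14194535-14291372), had 1.11, 1.04, 1.46 and 1.22 CPM in C26 tumours 1 to 4, against 0.849, 1.0, 1.43 and 0.667 CPM in control tumours 1 to 4. The groups overlapped at control tumour 3. The log2 fold change was 0.28 ± 0.29 (SE, 95% interval -0.33 to 0.88, adjusted p = 0.577) on 97 counts in C26 tumours and 77 in control tumours. Per kilobase, Myh11 was at 0.159 CPM in C26 tumours and 0.130 in control tumours, against 58.5 and 57.3 for Myh9, the main non-muscle heavy chain of these samples. The Myh11 share of 4 heavy chains was 0.270 ± 0.0402% in C26 tumours and 0.233 ± 0.103% in control tumours (exact permutation p = 0.571).

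Tpm1 and Tpm2 encode tropomyosins, which lie along the actin filament and set access for myosin. Both genes also make non-muscle isoforms, which a gene-level count cannot separate. Tpm1 (chr9:67022590-67049406) had 547, 746, 603 and 533 CPM in C26 tumours 1 to 4, against 587, 565, 536 and 600 CPM in control tumours 1 to 4. C26 tumour 2, which also had the highest skeletal muscle level, was the highest of the 8, and of the other C26 tumours 1 lay inside the control range, 1 just above it and 1 just below it. The log2 fold change was 0.09 ± 0.09 (SE, 95% interval -0.11 to 0.29, adjusted p = 0.60), and it was -0.03 without C26 tumour 2. Tpm2 (chr4:43514711-43523765) had 82.4, 74.2, 78.6 and 70.2 CPM in C26 tumours, against 81.7, 79.7, 95.3 and 78.4 CPM in control tumours 1 to 4, with a log2 fold change of -0.13 ± 0.08 (SE, 95% interval -0.30 to 0.03, adjusted p = 0.301). Tpm1 and Tpm2 together made up 24.2 ± 1.80% of the 4 tropomyosins per kilobase in C26 tumours and 25.7 ± 0.628% in control tumours (exact permutation p = 0.114, adjusted p = 0.167).

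Des encodes desmin, the intermediate filament of smooth, skeletal and cardiac muscle (chr1:75360329-75368579). It had 7.87, 48.3, 21.4 and 10.3 CPM in C26 tumours 1 to 4, against 2.50, 6.34, 4.99 and 1.64 CPM in control tumours 1 to 4. Every C26 tumour lay above every control tumour, and C26 tumours 2 and 3 stood well above the other C26 tumours. The means were 21.98 ± 18.5 CPM in C26 tumours and 3.87 ± 2.18 CPM in control tumours, a log2 fold change of 2.50 ± 0.76 (SE, 95% interval 0.66 to 4.33, adjusted p = 0.103). Of all tested genes, 7.91% had every C26 library above every control library and 8.14% had every one below, 16.1% in all. The Wald test of DESeq2 put Des past the threshold (adjusted p = 0.00779).

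Skeletal muscle genes, like Des, were highest in C26 tumours 2 and 3 and, among the control tumours, in control tumour 2. The summed level of the 20 listed genes was 70.3, 837, 190.9 and 46.3 CPM in C26 tumours 1 to 4, against 21.7, 67.6, 21.7 and 24.1 CPM in control tumours 1 to 4. Of the 16 tested, all had a positive log2 fold change, with a median of 3.52, and 1 passed, Myh1. This fast skeletal heavy chain had 296 counts in C26 tumours and 5 in control tumours and was at 0 in 3 control libraries. Myh1 entered the test through its C26 libraries alone, as control tumour 2, its highest control library, had 0.264 CPM, under the filter's 0.516 CPM. Myl1 had only control tumour 2 above that level, at 0.687 CPM. The signs and the median over the tested genes therefore lean towards C26. As each library was left out, 1 to 5 of the 16 passed. When the skeletal muscle level entered the fit, the log2 fold change of Des was 0.45 (adjusted p = 0.681), and without C26 tumours 2 and 3 it was 1.22 (adjusted p = 0.191). The mean log2 CPM used as that level was 1.14 to 4.79 in C26 tumours and -0.67 to 1.42 in control tumours. It went largely with the group, so this fit cannot fully separate the 2. The standard error of Mical2 widened from 0.086 to 0.13, and a call lost with this covariate can reflect such widening alone. That was not so for Des. Its standard error narrowed from 0.756 to 0.445, and its log2 fold change itself fell from 2.50. The genes nearest to Des in pattern were Cryab, Mylpf, Tnni2, Ttn and Slfn4, at root mean square differences of 0.608 to 0.878. Cryab encodes a small heat shock protein abundant in muscle, and Mylpf, Tnni2 and Ttn encode sarcomere proteins of skeletal muscle. Tnni2, Mylpf and Ttn were themselves on the skeletal muscle list.

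Within its family, Des was 0.878 ± 0.719% of the summed Des, Vim, Synm and Nes per kilobase in C26 tumours and 0.149 ± 0.0820% in control tumours (exact permutation p = 0.0286, adjusted p = 0.1). Vim, the vimentin of mesenchymal cells, was at 651 CPM per kilobase in C26 tumours and 686 in control tumours and did not pass. Nes, encoding nestin, passed with a log2 fold change of 0.27 (adjusted p = 0.0334), a call lost in 9 of 19 settings, among them without any of C26 tumours 1, 3 and 4 or control tumours 1, 2 and 3 (log2 fold change 0.20 to 0.37 over all settings).

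**Figure D4:**
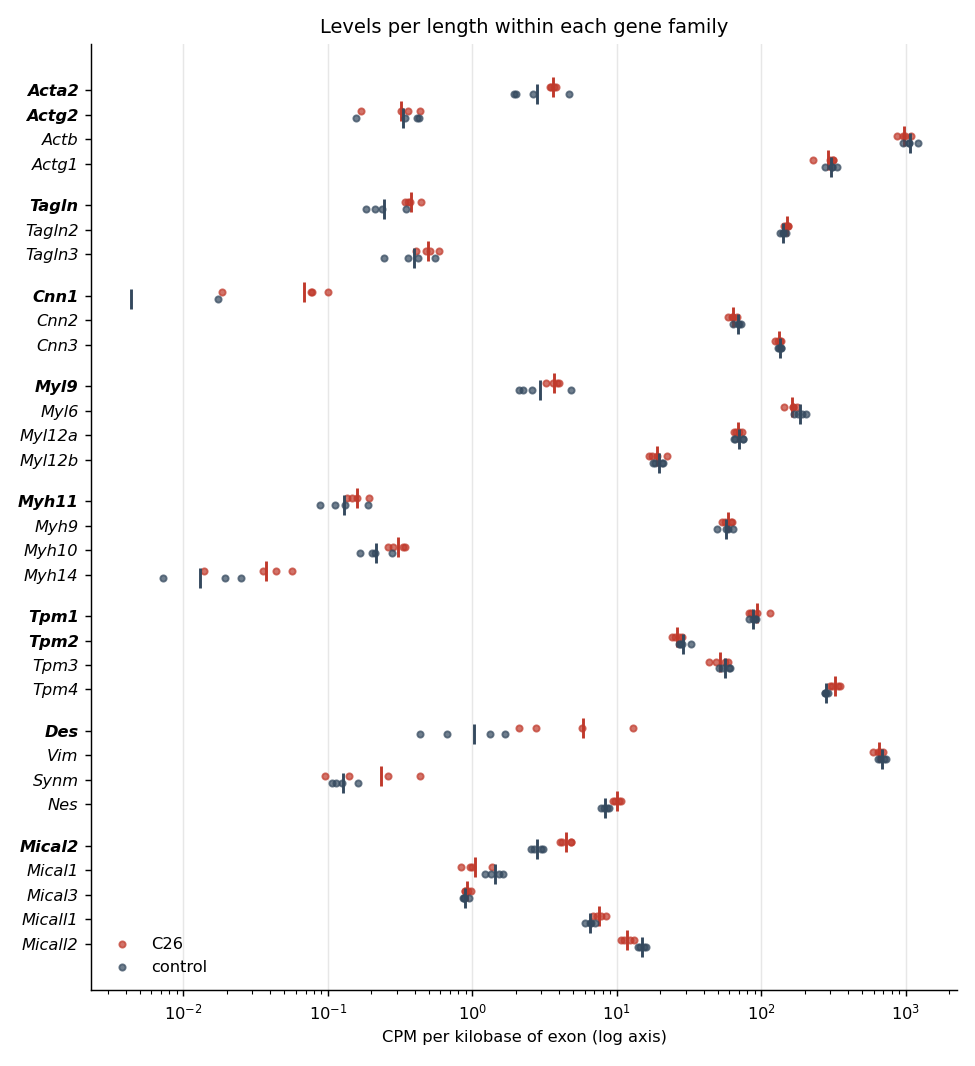
CPM per kilobase of exon, on a log axis, of each member (bold) beside the other genes of its family, by library, with a tick at the group mean. Libraries at 0 cannot be drawn, which leaves out 3 control libraries for Cnn1, and the non-muscle forms Actb, Tagln2, Cnn2, Cnn3, Myh9 and Vim stand far above the muscle forms in both groups.

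Mical2 encodes a flavin monooxygenase that oxidises actin and takes filaments apart, and in its nuclear role it favours MRTF and SRF activity (chr7:112225856-112413106). It had 63.2, 73.8, 61.7 and 73.3 CPM in C26 tumours 1 to 4, against 46.8, 40.8, 45.2 and 38.8 CPM in control tumours 1 to 4. All 4 C26 tumours lay above all 4 control tumours, with a gap wider than the range within either group. The means were 67.99 ± 6.46 CPM in C26 tumours and 42.9 ± 3.76 CPM in control tumours (SD, n = 4 each), a log2 fold change of 0.66 ± 0.09 (SE, 95% interval 0.48 to 0.84, adjusted p = 0.00129). It kept its call under all 19 alternative settings, with log2 fold changes of 0.55 to 0.74 and adjusted p from 3.92e-12 to 0.0300. When the skeletal muscle level entered the fit it was 0.67, and without C26 tumours 2 and 3 it was also 0.67. None of its transcript windows of 50 bases occurs in another gene of the annotation, and no annotated gene overlaps its exons.

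Of the 5 tested genes of the family of Mical2, Mical2 rose and Micall2 fell. Micall2, an adaptor that links membrane traffic to actin and has no oxidase domain, averaged 49.1 ± 4.72 CPM in C26 tumours and 62.3 ± 3.53 CPM in control tumours (log2 fold change -0.34, adjusted p = 0.0184). That call did not hold with the muscle covariate (adjusted p = 0.356) or without control tumour 3, and the log2 fold change stayed between -0.40 and -0.23 over the 19 settings. Mical1 averaged 6.28 ± 1.40 CPM in C26 tumours and 8.68 ± 1.05 CPM in control tumours (log2 fold change -0.47, adjusted p = 0.0795), and Mical3 and Micall1 had log2 fold changes of 0.06 and 0.21 and did not pass.

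Compared per kilobase of exon, the members spread over a wide range of levels. In C26 tumours the order was Tpm1 at 93.7 ± 15.0 CPM per kilobase, Tpm2 at 26.3 ± 1.82, Des at 5.85 ± 4.94, Mical2 at 4.47 ± 0.424, Myl9 at 3.68 ± 0.320, Acta2 at 3.59 ± 0.155, Tagln at 0.379 ± 0.0447, Actg2 at 0.321 ± 0.111, Myh11 at 0.159 ± 0.0243 and Cnn1 at 0.0679 ± 0.0347. Des differed from Mical2, Myl9 and Acta2 by less than its own SD, so its place among them in C26 tumours is uncertain. Myl9 and Acta2, and Tagln and Actg2, were neighbours that differed by less than the larger SD of the pair. The place of Tagln in both groups is uncertain beyond its SD, because of its overlap with Gm48529. In control tumours Des stood below Acta2, at 1.03 ± 0.580 CPM per kilobase, while Myl9 at 2.95 ± 1.28, Mical2 at 2.82 ± 0.247 and Acta2 at 2.80 ± 1.26 could not be ranked beyond their SD, nor could Actg2 at 0.333 ± 0.124 and Tagln at 0.245 ± 0.0720. The markers of mature smooth muscle, Myh11 and Cnn1, were the lowest members in both groups, and myocardin (Myocd), the smooth muscle cofactor of SRF, was near 0 with 3 counts in C26 tumours and 2 in control tumours. Lmod1, a leiomodin of smooth muscle thin filaments, had 3 counts in C26 tumours and 7 in control tumours.

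Other genes of the contractile pathway gave few calls. Of 14 tested genes that run smooth muscle contraction (kinases, phosphatase subunits, calcium channels and receptors), 1 rose and 0 fell, where 3.64% of all tested genes were called higher and 4.12% lower in C26 tumours, and 0 to 2 rose as each library was left out. The gene that rose was Ppp1r12b, a targeting subunit of myosin phosphatase, at 64.1 ± 5.81 CPM in C26 tumours and 51.5 ± 4.66 CPM in control tumours (adjusted p = 0.0336). Mylk, the kinase that phosphorylates the light chain, averaged 24.2 ± 3.74 CPM in C26 tumours and 19.7 ± 2.23 CPM in control tumours and did not pass (adjusted p = 0.121), and Cald1, encoding the thin-filament protein caldesmon, had a log2 fold change of -0.05. Of 12 tested regulators of SRF, 2 rose and 0 fell, beside the same 3.64% and 4.12% over all genes, and 0 to 2 rose as each library was left out. Scai, a suppressor of MRTF activity, had a log2 fold change of 0.40 (adjusted p = 0.0234), and Mrtfb, an MRTF, had 0.32 (adjusted p = 0.0436). These 3 calls were also lost with the muscle covariate and with length and GC offsets. Ppp1r12b was lost without C26 tumour 3 or 4 or control tumour 1, 2 or 4 (log2 fold change 0.26 to 0.39 over all settings), and Scai without C26 tumour 2 or 4 or control tumour 1 or 3 (0.11 to 0.48). Mrtfb was lost when any library but C26 tumour 1 was left out (0.18 to 0.40). Srf averaged 26.99 ± 4.11 CPM in C26 tumours and 25.9 ± 1.85 CPM in control tumours (adjusted p = 0.759).

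Of 26 tested genes that attach actin to adhesions and discs, 7 rose and 0 fell, where 3.64% of all tested genes were called higher and 4.12% lower. Their median log2 fold change was 0.17, against 0.01 over all genes. Of those that rose, Pdlim3 entered the test through its C26 libraries alone, with at most 0.317 CPM in a control library, under the filter's 0.516 CPM. Fhl1 and Ldb3 had only control tumour 2 above that level, at 0.581 and 0.634 CPM. The count of 7 and the median therefore lean towards C26. The count was 4 without control tumour 1, 2 or 3 and with length and GC offsets. It was 0 with the muscle covariate, which went largely with the group, in a fit that called 129 genes in all. Vcl, encoding vinculin of focal adhesions, averaged 14.2 ± 4.10 CPM in C26 tumours and 5.67 ± 1.1 CPM in control tumours (log2 fold change 1.33, adjusted p = 0.00429). Filip1l rose by 0.47 and Svil, encoding the membrane-linked actin binder supervillin, by 0.36 on the log2 scale (adjusted p = 0.0063 and 0.012). Lpp rose by 0.30 (adjusted p = 0.0232) and was highest in C26 tumour 4, at 94.0 CPM. Fhl1, Pdlim3 and Ldb3, which skeletal muscle expresses strongly, had log2 fold changes of 3.22, 4.15 and 1.90. Pdlim3, Ldb3 and Lpp were named after their values were seen. Fhl1, Pdlim3 and Ldb3 were highest in C26 tumour 2, the library with the highest skeletal muscle level. Vcl was at 16.7 and 16.6 CPM in C26 tumours 3 and 2, the libraries with the most skeletal muscle RNA, and at 8.13 CPM in C26 tumour 1. The part of skeletal muscle tissue in the values of these genes was not tested. C26 tumour 4, with the lowest skeletal muscle level of the C26 tumours, had 15.4 CPM of Vcl and the highest Filip1l, 91.1 CPM, and control tumour 2, with the highest level of the control tumours, had 5.13 CPM of Vcl, against 7.22 CPM in control tumour 1. With the muscle covariate the log2 fold changes were 1.13 for Vcl, 0.43 for Filip1l, 0.45 for Svil and 1.45 for Fhl1, and none of the 4 passed (adjusted p = 0.13, 0.12, 0.077 and 0.13). Svil also missed the threshold with length and GC offsets (log2 fold change 0.23, adjusted p = 0.078).

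Markers of stromal cells that can carry contractile genes were partly higher. Of 12 pericyte markers, 2 rose and 0 fell, where 3.64% of all tested genes were called higher and 4.12% lower, and 1 to 2 rose as each library was left out. Rgs5, a regulator of G-protein signalling marking pericytes, averaged 19.1 ± 3.30 CPM in C26 tumours and 11.01 ± 2.60 CPM in control tumours (adjusted p = 0.00953), and Heyl, a Notch target, had a log2 fold change of 1.04 (adjusted p = 0.0306). Heyl was no longer called without C26 tumour 1, 2 or 3 or control tumour 1, 2 or 4 (log2 fold change 0.79 to 1.20 over all settings), while Rgs5 was called whichever library was left out. Both missed the threshold with the muscle covariate (log2 fold change 0.94 for Rgs5, adjusted p = 0.0877) and with length and GC offsets. The defining receptors Pdgfrb and Cspg4 had log2 fold changes of 0.08 and -0.12 and did not pass, and the summed pericyte level ran from 302 to 378 CPM in C26 tumours and from 280 to 370 CPM in control tumours. Of 18 fibroblast markers, 4 rose and 0 fell, beside the same 3.64% and 4.12% over all genes, with Col5a1, a fibrillar collagen chain, and Postn, periostin, at log2 fold changes of 0.52 and 1.39. Mmp2 and Sparc were the others, at 0.71 and 0.36 (adjusted p = 0.0172 and 0.0127). Mmp2 was lost without control tumour 4, and Sparc with the muscle covariate. Col5a1 was called in all 19 settings, and Postn was lost without C26 tumour 2 or 4 or any 1 of the control tumours, with no low-count filter, with the muscle covariate and with length and GC offsets (log2 fold change 1.16 to 1.81 over all settings). The summed fibroblast level was 9334 to 11990 CPM in C26 tumours and 6615 to 8359 CPM in control tumours. Of 11 tested endothelial markers, 3 rose and 0 fell, beside the same 3.64% and 4.12%. They were Ptprb, Tek and Mmrn2, with log2 fold changes of 0.81, 0.89 and 0.87. None of the 3 passed with the muscle covariate (adjusted p = 0.10, 0.14 and 0.25). Over the 19 settings the call was lost in 1 for Ptprb, 3 for Tek and 6 for Mmrn2. The number of endothelial markers that rose was 1 without control tumour 1 and 6 without control tumour 3. The summed level of the 12 listed endothelial genes was 137 to 171 CPM in C26 tumours and 100 to 154 CPM in control tumours. Of the adipocyte and epithelial lists 1 gene each could be tested, Fabp4 and Cdh1, and neither passed, while no keratinocyte gene reached the filter. How much of the difference in Mical2 or of the positive values of the smooth muscle members these cells account for was not tested.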

How the data were processed

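The authors deposited 1 table of raw counts per Ensembl gene for the 8 libraries, and its whole numbers were used as counts. Oligo(dT) beads were used to take up polyadenylated RNA, per the labels' protocols. Per the series design text the kit marked strand and reads were paired, with Cutadapt, STAR, Picard and RSEM, whereas the submitters' processing notes name featureCounts 2.0.1, HISAT2 2.2.1 and Trim Galore 0.6.7. Both name mm10. The sources used here name no annotation release, strand setting or rule for reads with several positions.

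Symbols and coordinates came from GENCODE M21 on GRCm38, which named 52073 of the identifiers. The rest took 0.769% of counts. In R 4.3.3, edgeR 4.0.16 kept genes by filterByExpr (minimum count 10), scaled by TMM and ran the robust quasi-likelihood test, two-sided, with group as the sole term. CPM is on the TMM scale, log2 CPM used a prior count of 2, per-kilobase values use all annotated exon bases, and 95% intervals of fold changes use edgeR's degrees of freedom. Family shares were compared by exact two-sided permutation over 70 arrangements, with a smallest p of 0.0286. Where the 4 control libraries hold no count of a gene, up to 0.039 CPM remains possible, and such limits and count intervals hold for counting error alone.

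Replicates of a group differed beyond sampling noise. Members and gene lists were chosen with earlier results of these data known. Named genes were drawn from the members, their families and the 4 tested genes with the smallest p in each list. They were also drawn from some set regulators and markers, and the 5 genes nearest in pattern to Acta2 and to Des. Not every gene under these rules is named, and exceptions are said where they occur. Alternatives were other scalings and filters, limma-voom (limma 3.58.1), DESeq2 1.42.0 (Wald test), replicate number as a block, skeletal muscle level as a covariate, length and GC offsets, and leaving out libraries. Promoter sequences are from RefSeq (GRCm38.p6).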

Additional observations from a re-analysis of the deposited data

Results flagged for a closer look

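Among 36 groups of 4 libraries examined, 4 held a library whose gap to the nearest other library was large against the whole range of its group. Chance gives about 1 such group in 20. For Cnn1 it was control tumour 1, at 0.0472 CPM where the other control tumours were at 0, a difference of 1 count. The same count put the Cnn1 share of the calponins in control tumour 1 at 0.00851%. The Tagln share of the transgelins was 0.307% in C26 tumour 2, above the other C26 tumours. The mean log2 CPM of the skeletal muscle genes was 1.42 in control tumour 2, above the other control tumours.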

How the results depend on the processing

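Of the 10 members, 1 rose and 0 fell in each of the alternatives except that 2 rose under DESeq2 and with the replicate number as a block, where Des was added (log2 fold change 2.36, adjusted p = 2.67e-05), and without control tumour 3, where Acta2 was added, so the count ran from 1 to 2 as each library was left out. Same-numbered libraries deviated together with correlations of -0.02, 0.14, -0.02 and 0.09, and 2 of 4 C26 libraries correlated best with the control of their own number, so the numbers were not taken to pair the tumours. The block gave 1184 changed genes, and Postn and Mrtfb were no longer called with it. The 1223 changed genes became 1949 with total library sizes, 1948 with no low-count filter, 129 with the muscle covariate, 584 with length and GC offsets, 1813 under DESeq2, 1536 under limma-voom and 643 to 1457 as each library was left out, with 643 without control tumour 1, 703 without 2, 644 without 3 and 725 without C26 tumour 4. Family shares kept their direction in each setting run.

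Signs turned mostly for small differences. The largest were those of Synm, Tnni2, Ttn and Slfn4, with log2 fold changes of 0.86, 1.67, 1.51 and 1.31 in the fit with group alone. Tnni2 and Ttn are on the skeletal muscle list whose mean is the muscle covariate, so they enter that covariate themselves. With total library sizes the log2 fold changes were 0.048 for Cnn3, 0.035 for Myl12b, 0.0499 for Myl12a, 0.021 for Fabp4 and 0.023 for Cald1. With the muscle covariate they were -0.19 for Tpm1, -0.14 for Tagln3, 0.036 for Myl12b, -0.098 for Myh9, -0.47 for Synm, -0.012 for Elk1, 0.066 for Fabp4, -0.22 for Srf, -1.17 for Tnni2, -0.54 for Ttn and -0.34 for Slfn4. With length and GC offsets they were 0.026 for Actg2, -0.049 for Myh9 and -0.041 for Mical3. Without C26 tumours 2 and 3 they were -0.082 for Tpm1, 0.089 for Myl12b, -0.072 for Myh9, -0.12 for Synm, 0.12 for Fabp4, -0.13 for Srf and -0.12 for Tnni2. As each library was left out, they ran from -0.29 to 0.12 for Actg2, -0.13 to 0.016 for Actg1, -0.041 to 0.0015 for Cnn3, -0.099 to 0.049 for Cald1, -0.027 to 0.14 for Tpm1, -0.037 to 0.085 for Myh9, -0.18 to 0.016 for Fabp4, -0.029 to 0.13 for Srf, -0.13 to 0.015 for Myl12b and -0.067 to 0.0097 for Myl12a. The cause was not tested. DESeq2 gave no adjusted p for Tagln, Actg2, Tagln3 and Ttn, so that setting is left out for them. Tagln, Cnn1, Actg2 and Myh11 rest on few counts, which limits them most.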
